A study of Mus musculus with 8 samples.

Results

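Sterol uptake, export and esterification genes were followed in mouse jejunal crypts, the pits of the small intestine that hold its stem and progenitor cells. The genes are Npc1l1, Abcg5, Abcg8, Abca1, Soat2 and Soat1. They were chosen by name, as the rows of the expression table with these symbols, and all 6 were found among its 23951 gene symbols. Npc1l1 takes sterol in, Abcg5, Abcg8 and Abca1 export it, and Soat2 and Soat1 do neither but esterify it inside the cell. Of the 23951 symbols, 12084 reached 1 FPKM in at least 2 libraries and were tested, all 6 sterol genes among them. FPKM, the unit of the table, scales the fragments of a gene by transcript length and library size, so levels can be compared between genes per length. Abca1 reached 1 FPKM in 6 of 8 libraries, none of them labelled CDX2KO_BRAF, so it entered the test through the other groups.

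Cholesterol enters the enterocyte from the gut lumen through NPC1L1, a brush border protein that is carried into the cell with its sterol and recycled. ABCG5 and ABCG8 work only as a pair, and this heterodimer pumps plant sterols and surplus cholesterol back into the lumen. ABCA1 works on the opposite, basolateral side and loads cholesterol onto apolipoprotein A-I to form high density lipoprotein. Sterol that stays is esterified for packing into chylomicrons by SOAT2 (ACAT2), the enterocyte and hepatocyte enzyme, while SOAT1 (ACAT1) serves most other cells. The liver X receptors (LXR) switch on the exporter genes when oxysterols accumulate, and SREBP2 switches on sterol synthesis and uptake genes when sterol is short.

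RNA was sequenced in 8 libraries of 3 groups. The 2 libraries labelled CDX2KO_BRAF came from mice with floxed Cdx2 (Cdx2 f/f), a homeobox factor of intestinal identity, and the 3 SMAD4KO_BRAF libraries from mice with floxed Smad4 (Smad4 f/f), a mediator of BMP and TGF-beta signals. The 3 BRAF libraries had neither floxed gene. All mice, the BRAF group included, carried BRAF-V600E f/+, a conditional allele of an activated kinase, and Villin-CreER(T2), a recombinase confined by its promoter to the intestinal epithelium, so cells outside the epithelium keep the floxed genes. Tamoxifen, which switches the recombinase on, was injected on 4 days in a row, and crypts were taken 1 day later with 3 mM EDTA and a 70 micron filter. The labels give no age of the mice and do not say whether each library is 1 animal, so the p-values speak of the spread among libraries, which may be technical. Libraries are numbered from 0 as the table's columns are, and values within a group are given in that order.

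Summed over genes, libraries held 431269 to 595547 FPKM, and relative depth, read from the steps between low values, lay between 0.717 and 1.45 of BRAF library 0. No read counts are at hand, so the absolute depth is unknown and the spread between libraries is the measure of precision. Smad4 stood at 7.66 to 10.7 FPKM in SMAD4KO_BRAF libraries and at 35.3 to 47.0 FPKM in the other 5. Cdx2 went against its label, with 155 and 121 FPKM in the libraries labelled CDX2KO_BRAF, 75.1 to 93.1 FPKM in SMAD4KO_BRAF and 64.2 to 82.6 FPKM in BRAF. An FPKM of the whole gene does not tell the floxed part from the rest, so it does not check the deletion. The directions of these libraries therefore depend on how they were labelled. The 6 epithelial markers, Epcam and Vil1 among them, summed to 3559 to 3564 FPKM in the libraries labelled CDX2KO_BRAF, to 3029 to 4530 FPKM in SMAD4KO_BRAF and to 4245 to 5897 FPKM in BRAF, and 3 endothelial markers to less than 1 FPKM. By Y-linked genes BRAF library 0 and SMAD4KO_BRAF library 0 came from males and the other 6 from females.

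In the libraries labelled CDX2KO_BRAF the importer gene Npc1l1, both genes of the apical exporter and the enterocyte esterification gene Soat2 fell against BRAF, and Soat1, the esterification gene of most other cells, rose. The falls ran from a mean of 0.444 times the BRAF level for Npc1l1 to 0.119 times for Abcg8, and Soat1 stood at 2.08 times the BRAF level. By limma on log2(FPKM + 1), with p-values adjusted by the Benjamini-Hochberg method over all tested genes and a threshold of 0.05, 4 of the 6 genes fell and 1 rose. Of all tested genes 14.1% passed in this comparison, 7.21% lower and 6.89% higher. All 6 had an unadjusted p under 0.05, as did 28.8% of all tested genes. The median difference of the 6 genes was -1.40 on the log2(FPKM + 1) scale, beside 0.02 over all tested genes. Every library labelled CDX2KO_BRAF lay below every BRAF library for 5 of the 6 genes and above for Soat1, as it did for 22.7% and 25.7% of all tested genes. The unadjusted count, the median and the 5 lower genes include Abca1, which passed the filter only through groups where it is higher.

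In SMAD4KO_BRAF libraries none of the 6 genes passed against BRAF, and all 6 differences were negative. Npc1l1 stood apart from the BRAF libraries most clearly, at 0.455 times their mean. Abcg5 and Abcg8 stood at 0.583 and 0.541 times the BRAF mean. With limma 0.0745% of all tested genes passed in this comparison, 9 in number (0.0248% higher and 0.0497% lower), and 15.1% had an unadjusted p under 0.05, as did Npc1l1, Abcg5 and Abcg8. Every SMAD4KO_BRAF library lay below every BRAF library for these 3 genes, as for 10.4% of all tested genes, while 8.99% lay above in the same way. The median difference of the 6 genes was -0.73, beside -0.01 over all tested genes. Both comparisons with BRAF share the same 3 BRAF libraries, so they are not independent of each other.

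Set against SMAD4KO_BRAF, the libraries labelled CDX2KO_BRAF had lower Abcg5 and Abcg8 and higher Soat1, and Npc1l1 did not differ detectably. These 3 genes passed, 2 lower and 1 higher, where 11.6% of all tested genes passed, 5.01% lower and 6.6% higher. Unadjusted p-values under 0.05 were found for 5 of the 6 genes and for 28.9% of all tested genes. The libraries labelled CDX2KO_BRAF lay below every SMAD4KO_BRAF library for 4 of the 6 genes and above for Soat1, as they did for 22.2% and 25.1% of all tested genes. The median difference of the 6 genes was -0.98, beside 0.02 over all tested genes. Here too the unadjusted count, the median and the 4 lower genes include Abca1, with the same limit of the filter.

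**Figure D1:**
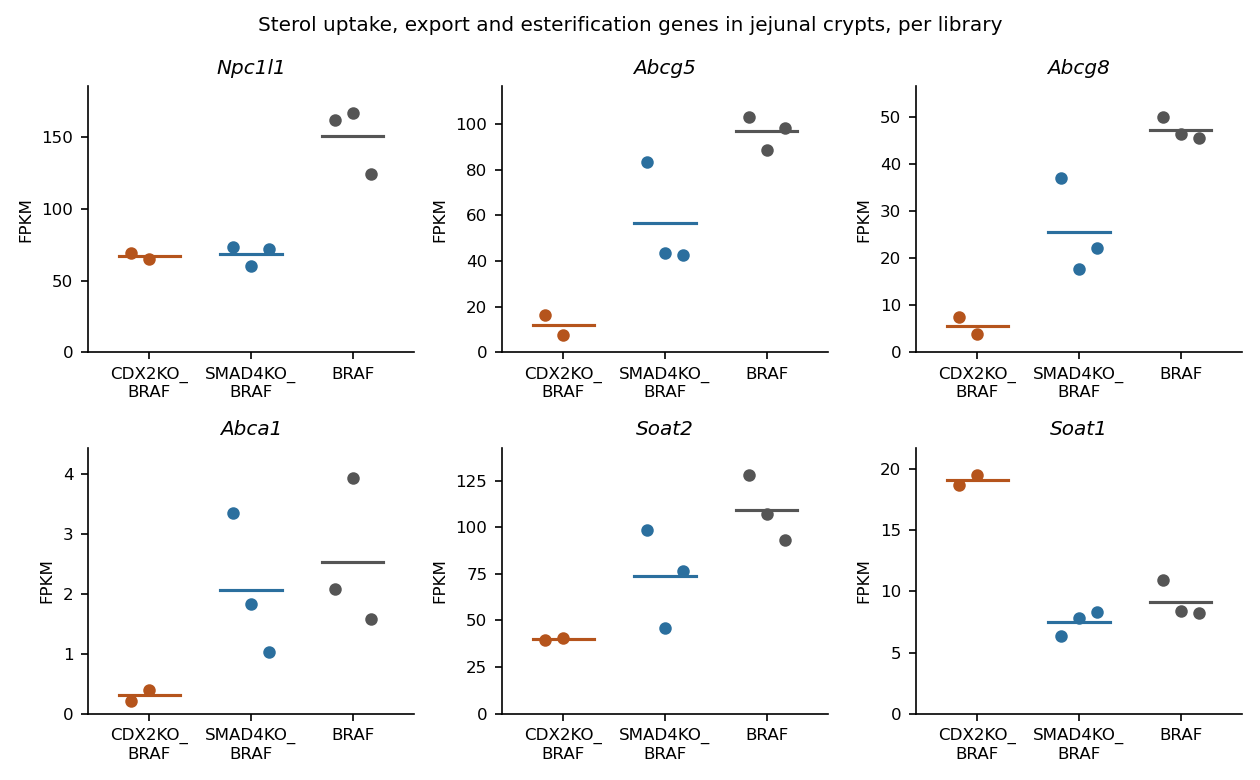
Levels of the 6 sterol genes in FPKM. Each point is 1 library and each bar the mean of a group. The libraries labelled CDX2KO_BRAF lie at 7.68 to 16.4 for Abcg5 and at 18.7 to 19.5 for Soat1, and for Npc1l1 they lie among the SMAD4KO_BRAF libraries.

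Npc1l1 encodes the brush border importer of cholesterol, the target of the drug ezetimibe. Its level was 69.1 and 64.9 FPKM in the libraries labelled CDX2KO_BRAF, 73.6, 60.3 and 72.2 FPKM in SMAD4KO_BRAF libraries, and 162, 167 and 124 FPKM in BRAF libraries. The first 5 of these values lie close together and none reaches the lowest BRAF library. The mean was 67.0 ± 2.97 FPKM in the libraries labelled CDX2KO_BRAF (SD, n = 2), 68.7 ± 7.29 FPKM in SMAD4KO_BRAF (n = 3) and 151 ± 23.4 FPKM in BRAF (n = 3). In BRAF crypts it exceeded the mean of 95.5% of tested genes. Npc1l1 fell in the libraries labelled CDX2KO_BRAF, with a difference from BRAF of -1.15 ± 0.16 (SE) and a 95% interval of -1.53 to -0.76 (limma, adjusted p = 0.00545). That call was lost without CDX2KO_BRAF library 1 (adjusted p = 0.0587). In SMAD4KO_BRAF the difference from BRAF was -1.12 ± 0.15, with an interval of -1.46 to -0.77, and its adjusted p of 0.0901 was the 12th smallest of 12084 genes in limma. It passed without BRAF library 2, the lowest of that group (0.0483), with a term for sex (0.0365) and with library weights (0.0315), and over 20 alternatives its adjusted p ran from 0.0315 to 0.284. Between the libraries labelled CDX2KO_BRAF and SMAD4KO_BRAF the difference was -0.03 ± 0.16, and the interval of -0.42 to 0.35 bounds it without showing that the groups are alike. In these bulk samples fewer cells of a type and less RNA per cell cannot be told apart.

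The region around the Npc1l1 start site is shown. Levels of Npc1l1 were close in both groups with an added floxed gene and unlike those of the exporter genes. The table of values is on the build mm9 and holds no coordinates, so promoter windows were taken from RefSeq on GRCm38.p6, from 250 bases before to 50 bases after a start site. Windows were found for 5 of the 6 genes, all but Soat2. Each was searched on both strands for the CDX core TTTAT, for the GATA sites AGATAA and TGATAA, for the SREBP element TCACNCCAC, for the HNF4 element CAAAGTCCA and for the LXR repeat, AGGTCA 2 times in the same direction with 4 bases between. These motifs were chosen with the sequences in view, and a match is a description, not a bound site. The Npc1l1 window at chr11:6230196-6230495 (minus strand) holds 1 CDX core and 1 GATA site, in capitals as they read on the strand shown, and the same search finds a CDX core in 40.0% and a GATA site in 18.6% of all 32851 windows.
Npc1l1: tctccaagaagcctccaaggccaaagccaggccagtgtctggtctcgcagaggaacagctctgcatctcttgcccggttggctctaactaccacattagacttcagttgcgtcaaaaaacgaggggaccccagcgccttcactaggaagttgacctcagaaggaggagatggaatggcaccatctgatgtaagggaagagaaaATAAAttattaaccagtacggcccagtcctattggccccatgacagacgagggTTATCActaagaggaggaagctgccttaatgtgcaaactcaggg

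Abcg5 and Abcg8 encode the obligate partners of the apical sterol exporter, and loss of either causes sitosterolaemia in humans. Abcg5 stood at 16.4 and 7.68 FPKM in the libraries labelled CDX2KO_BRAF, at 83.4, 43.4 and 42.5 FPKM in SMAD4KO_BRAF libraries, and at 103, 88.7 and 98.3 FPKM in BRAF libraries. Abcg8 stood at 7.45 and 3.86 FPKM in the libraries labelled CDX2KO_BRAF, at 37.1, 17.7 and 22.2 FPKM in SMAD4KO_BRAF libraries, and at 50.2, 46.4 and 45.6 FPKM in BRAF libraries. For both genes the 3 groups did not overlap, with the libraries labelled CDX2KO_BRAF lowest, SMAD4KO_BRAF between and BRAF highest. The share of all tested genes in this order of 3 groups was not computed. Pair by pair, 22.7% lay lower in CDX2KO_BRAF than in BRAF, 22.2% lower than in SMAD4KO_BRAF, and 10.4% lower in SMAD4KO_BRAF than in BRAF. SMAD4KO_BRAF library 0 was the highest of its group and CDX2KO_BRAF library 1 the lowest of its group for both. The mean of Abcg5 was 12.1 ± 6.19 FPKM in the libraries labelled CDX2KO_BRAF (SD, n = 2), 56.4 ± 23.3 FPKM in SMAD4KO_BRAF (n = 3) and 96.7 ± 7.40 FPKM in BRAF (n = 3). For Abcg8 the means were 5.66 ± 2.53 FPKM, 25.6 ± 10.1 FPKM and 47.4 ± 2.45 FPKM in the same groups. Abcg5 exceeded the mean of 48.8% of tested genes in the libraries labelled CDX2KO_BRAF and of 92.1% in BRAF crypts.

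Against BRAF, Abcg5 fell by 2.99 ± 0.37 in the libraries labelled CDX2KO_BRAF, with a 95% interval of -3.85 to -2.12 (limma, adjusted p = 0.00335). Abcg8 fell by 2.92 ± 0.33, with an interval of -3.69 to -2.14 (adjusted p = 0.00244). Both passed in all 20 alternatives run. SMAD4KO_BRAF differed from BRAF by -0.84 ± 0.33 for Abcg5 (interval -1.61 to -0.06, limma adjusted p = 0.309) and by -0.93 ± 0.29 for Abcg8 (interval -1.62 to -0.23, adjusted p = 0.269). Neither passed, and of the 20 alternatives only library weights brought them past the threshold (adjusted p = 0.0489 and 0.0432). Between the libraries labelled CDX2KO_BRAF and SMAD4KO_BRAF, Abcg5 differed by -2.15 ± 0.37 (limma, adjusted p = 0.0130) and Abcg8 by -1.99 ± 0.33 (adjusted p = 0.0116). Both of these calls were lost without CDX2KO_BRAF library 1, the lower one (adjusted p = 0.0917 and 0.0906).

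The partners of the exporter kept step in every library. The ratio of Abcg5 to Abcg8 was 2.21 and 1.99 in the libraries labelled CDX2KO_BRAF, 2.25, 2.45 and 1.92 in SMAD4KO_BRAF libraries, and 2.06, 1.91 and 2.16 in BRAF libraries. The groups overlap throughout, although the level of each gene varied widely between libraries. The log2 ratio, computed on FPKM + 1, differed from BRAF by -0.07 in the libraries labelled CDX2KO_BRAF (exact two-sided permutation test, p = 0.6) and by 0.09 in SMAD4KO_BRAF (exact p = 0.5), where the smallest p the designs allow is 0.1. The first of these changed sign, to 0.03, with a pseudocount of 0.1 and without CDX2KO_BRAF library 1. Over the 8 libraries, which differ by group, the log2 levels of Abcg5 and Abcg8 had a Pearson r of 0.995.

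Abcg5 and Abcg8 lie head to head on chromosome 17, and the region they share is shown because they moved together. Their start sites in RefSeq are 110 bases apart and point away from each other, and the windows of both share 209 bases. The Abcg8 window at chr17:84682871-84683170 (plus strand) holds 1 CDX core and 3 GATA sites, in capitals, and each of these is also in the Abcg5 window at chr17:84682962-84683261 (minus strand). Of all windows 0.502% hold at least 3 GATA sites. No CDX core overlapped a GATA site. With the base before it, the CDX core reads TATAAA on the Abcg5 strand, as a TATA box does. The search for TTTAT cannot tell these apart. RefSeq also lists an Abcg8 start site 6709 bases from that of Abcg5, and its window holds none of the motifs.
Abcg8: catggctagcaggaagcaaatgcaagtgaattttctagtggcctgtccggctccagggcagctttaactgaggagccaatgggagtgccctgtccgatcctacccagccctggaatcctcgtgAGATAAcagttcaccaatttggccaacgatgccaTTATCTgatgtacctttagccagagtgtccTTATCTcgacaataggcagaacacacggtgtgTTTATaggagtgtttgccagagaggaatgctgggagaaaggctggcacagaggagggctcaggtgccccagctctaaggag

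Abca1 encodes the basolateral exporter and was near the lower end of the tested genes. It stood at 0.212 and 0.399 FPKM in the libraries labelled CDX2KO_BRAF, at 3.35, 1.83 and 1.03 FPKM in SMAD4KO_BRAF libraries, and at 2.08, 3.93 and 1.58 FPKM in BRAF libraries. The libraries labelled CDX2KO_BRAF lay below all others, and SMAD4KO_BRAF and BRAF overlapped. The difference of the libraries labelled CDX2KO_BRAF from BRAF was -1.38 ± 0.38, with a 95% interval of -2.27 to -0.50, and just missed the threshold (limma, adjusted p = 0.0523). It passed in 7 of 19 alternatives, among them the fits without SMAD4KO_BRAF library 0 (0.0368) or library 2 (0.0448). A pseudocount of 0.1 moved it to -2.64 (adjusted p = 0.0238), and log2(FPKM + 1) understates differences at such low levels. Abca1 reached 1 FPKM only in the other groups, so the filter itself favours a lower value in the libraries labelled CDX2KO_BRAF. The passing alternatives share that limit. SMAD4KO_BRAF differed from BRAF by -0.22 ± 0.34 (interval -1.01 to 0.58, limma adjusted p = 0.773) and turned positive, to 0.05, without BRAF library 1 or without SMAD4KO_BRAF library 2. From SMAD4KO_BRAF the libraries labelled CDX2KO_BRAF differed by -1.17 ± 0.38 (limma, adjusted p = 0.0901), which passed with a pseudocount of 0.1 (-2.31, adjusted p = 0.0410). Macrophages also express Abca1, and BRAF library 1, the highest in Abca1, was also the highest in macrophage markers. Within SMAD4KO_BRAF the order was the reverse, with library 0 highest in Abca1 and lowest in these markers, and library 2 the other way round. The 9 macrophage and myeloid markers in the table summed to 23.7 and 31.5 FPKM in the libraries labelled CDX2KO_BRAF, to 22.3, 43.5 and 57.2 FPKM in SMAD4KO_BRAF libraries, and to 16.8, 93.4 and 21.5 FPKM in BRAF libraries. The macrophage gene Emr1 was listed at 0 in 1 library labelled CDX2KO_BRAF and 1 BRAF library, and C1qb in 1 library labelled CDX2KO_BRAF. Of 8 macrophage markers tested, 7 had a negative difference from BRAF in the libraries labelled CDX2KO_BRAF, none of them called, and Cd14 rose, with a median of -0.77 over the list. Their part in the Abca1 values was not tested.

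Soat2 encodes the esterification enzyme of enterocytes. Its level was 39.7 and 40.5 FPKM in the libraries labelled CDX2KO_BRAF, 98.4, 46.2 and 76.4 FPKM in SMAD4KO_BRAF libraries, and 128, 107 and 92.9 FPKM in BRAF libraries. The libraries labelled CDX2KO_BRAF lay below all others, while SMAD4KO_BRAF library 0 lay above the lowest BRAF library. Soat2 fell in the libraries labelled CDX2KO_BRAF by 1.41 ± 0.30 against BRAF, with a 95% interval of -2.11 to -0.71 (limma, adjusted p = 0.0227). That call was lost without library 0 (0.0602) or library 1 (0.0518) of BRAF, and without library 0 (0.121) or library 1 (0.124) of those labelled CDX2KO_BRAF. In SMAD4KO_BRAF the difference from BRAF was -0.62 ± 0.27, and its interval of -1.24 to 0.01 includes 0 (limma, adjusted p = 0.337). The libraries labelled CDX2KO_BRAF differed from SMAD4KO_BRAF by -0.80 ± 0.30 (limma, adjusted p = 0.128), which passed without SMAD4KO_BRAF library 1, the lowest of its group (-1.09, adjusted p = 0.0236).

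Soat1 encodes the esterification enzyme of macrophages, adrenal cells and most other tissues, and was the one gene of the 6 that went the other way. It stood at 18.7 and 19.5 FPKM in the libraries labelled CDX2KO_BRAF, at 6.37, 7.81 and 8.33 FPKM in SMAD4KO_BRAF libraries, and at 10.9, 8.37 and 8.23 FPKM in BRAF libraries. Both libraries labelled CDX2KO_BRAF lay far above the other 6, and SMAD4KO_BRAF and BRAF overlapped. Soat1 rose by 0.99 ± 0.16 against BRAF, with a 95% interval of 0.62 to 1.36 (limma, adjusted p = 0.00821). That call was lost without CDX2KO_BRAF library 0 (0.0547) or library 1 (0.0743). Against SMAD4KO_BRAF the rise was 1.25 ± 0.16 (limma, adjusted p = 0.00459), lost without CDX2KO_BRAF library 1 (0.0526). SMAD4KO_BRAF differed from BRAF by -0.25 ± 0.14 (interval -0.59 to 0.08, limma adjusted p = 0.417). Cd14, the one macrophage marker that rose, stood at 20.8 and 19.6 FPKM in the libraries labelled CDX2KO_BRAF, against 9.21, 12.6 and 9.23 FPKM in BRAF libraries. The other macrophage and myeloid markers summed to 2.85 and 11.9 FPKM in the libraries labelled CDX2KO_BRAF, against 7.56, 80.8 and 12.3 FPKM in BRAF libraries. The part of Cd14-bearing cells or of macrophages in the Soat1 values was not tested. The Soat1 window at chr1:156474279-156474578 (minus strand) is shown because Soat1 moved in the other direction. It holds neither a CDX core nor a GATA site, nor does the second Abcg8 window. The Abca1 window holds 2 matches to the CDX core and no GATA site. Of all windows 40.0% hold a CDX core and 18.6% a GATA site, so most lack the first and most lack the second. Any link of the motifs to the direction was not tested. The Abca1 match nearer the start site also reads as a TATA box, which a search for TTTAT cannot tell from a CDX core. None of the windows searched held the SREBP element, the HNF4 element or the LXR repeat, which 1.24%, 0.475% and 0.0152% of all windows hold.
Soat1: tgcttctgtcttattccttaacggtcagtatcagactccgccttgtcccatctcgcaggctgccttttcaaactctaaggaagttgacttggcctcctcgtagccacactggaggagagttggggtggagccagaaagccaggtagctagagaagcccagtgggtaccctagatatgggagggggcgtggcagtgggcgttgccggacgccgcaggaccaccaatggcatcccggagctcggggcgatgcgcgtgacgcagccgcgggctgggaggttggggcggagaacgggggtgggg

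**Figure D2:**
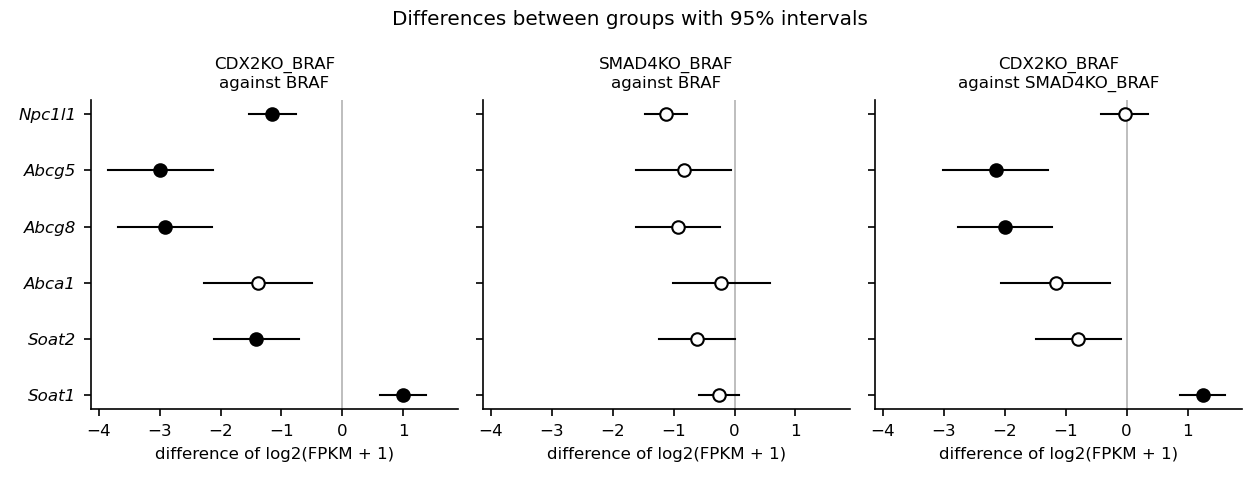
Differences of mean log2(FPKM + 1) between groups for the 6 genes, with 95% intervals from limma, and filled points where the adjusted p is under 0.05. Npc1l1 lies near -1.1 against BRAF in both groups, while Abcg5 and Abcg8 lie near -3 in the libraries labelled CDX2KO_BRAF and near -0.9 in SMAD4KO_BRAF.

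The opposite moves of the esterification genes narrowed the gap between them. The ratio of Soat2 to Soat1 was 2.13 and 2.08 in the libraries labelled CDX2KO_BRAF, 15.4, 5.92 and 9.17 in SMAD4KO_BRAF libraries, and 11.7, 12.8 and 11.3 in BRAF libraries. Soat2 stayed the higher gene per length in every library, and the libraries labelled CDX2KO_BRAF did not overlap the others. On the log2 scale of FPKM + 1 the ratio differed by -2.40 between the libraries labelled CDX2KO_BRAF and BRAF (exact two-sided permutation p = 0.1, the smallest possible here, 0.225 adjusted over 9 ratio tests). In SMAD4KO_BRAF it differed from BRAF by -0.36 (exact permutation p = 0.5), a value that ran from -0.70 without SMAD4KO_BRAF library 0 to -0.034 without SMAD4KO_BRAF library 1. The ratio of importer to exporter, Npc1l1 to Abcg5, was added after the values were seen. It was 4.20 and 8.45 in the libraries labelled CDX2KO_BRAF, 0.883, 1.39 and 1.70 in SMAD4KO_BRAF libraries, and 1.57, 1.88 and 1.26 in BRAF libraries. Both libraries labelled CDX2KO_BRAF had the higher ratio, with a log2 difference of 1.84 from BRAF (exact permutation p = 0.1), while SMAD4KO_BRAF overlapped BRAF at a difference of -0.28, which ran from -0.48 without SMAD4KO_BRAF library 2 to -0.019 without SMAD4KO_BRAF library 0.

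**Figure D3:**
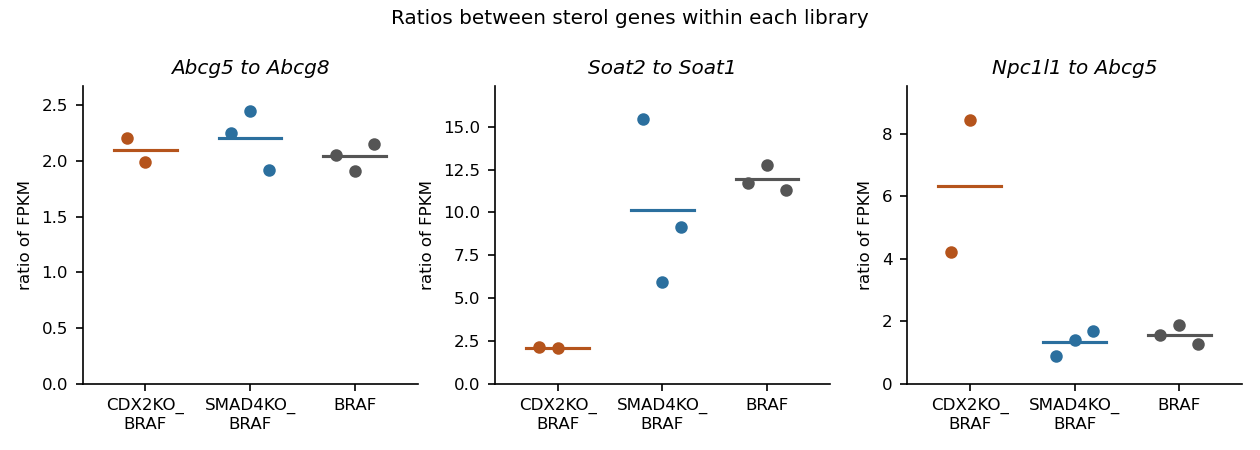
Ratios of FPKM within a library. Each point is 1 library and each bar the mean of a group. Abcg5 to Abcg8 lies between 1.91 and 2.45 in all 8 libraries, and Soat2 to Soat1 lies at 2.13 and 2.08 in the libraries labelled CDX2KO_BRAF.

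Per length, the order of the 6 genes differed between the groups. In the libraries labelled CDX2KO_BRAF it ran from Npc1l1 over Soat2, Soat1, Abcg5 and Abcg8 to Abca1, and no neighbours overlapped. In SMAD4KO_BRAF it ran from Soat2 over Npc1l1, Abcg5, Abcg8 and Soat1 to Abca1, and the first 3 overlapped. In BRAF it ran from Npc1l1 over Soat2, Abcg5, Abcg8 and Soat1 to Abca1, where Soat2 overlapped both Npc1l1 and Abcg5. Sex was checked as a batch, since the libraries labelled CDX2KO_BRAF are all female. In female libraries alone, 2 in each group, the difference of the libraries labelled CDX2KO_BRAF from BRAF was -1.09 for Npc1l1, -2.94 for Abcg5, -2.87 for Abcg8, -1.45 for Abca1, -1.29 for Soat2 and 1.11 for Soat1. The same 5 genes passed there. For SMAD4KO_BRAF against BRAF in female libraries it was -1.11 for Npc1l1, -1.10 for Abcg5, -1.17 for Abcg8, -0.57 for Abca1, -0.74 for Soat2 and -0.04 for Soat1, and none passed (limma, adjusted p of at least 0.207). The male libraries, 1 in BRAF and 1 in SMAD4KO_BRAF, are too few for values of their own.

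Genes of mature enterocytes, the cells known for this sterol transport, were also lower than in BRAF. Of 10 such markers, 7 fell in the libraries labelled CDX2KO_BRAF against BRAF, where 7.21% of all tested genes fell, and all 10 differences were negative, with a median of -2.66. In SMAD4KO_BRAF all 10 were negative against BRAF, none passed, and the median was -1.35. Between the libraries labelled CDX2KO_BRAF and SMAD4KO_BRAF, 3 of the 10 were lower, as were 5.01% of all tested genes, with a median of -1.14. The markers summed to 5597 and 2281 FPKM in the libraries labelled CDX2KO_BRAF, to 15554, 6360 and 5368 FPKM in SMAD4KO_BRAF libraries, and to 22501, 10664 and 12046 FPKM in BRAF libraries, with no marker at 0 in any library. SMAD4KO_BRAF library 0, the highest of its group in each of the 6 genes but Soat1, was also the highest of its group in this sum, and CDX2KO_BRAF library 1, the lower in Abcg5 and Abcg8, was the lower in it. BRAF library 0, the highest of its group in Abcg5, Abcg8 and Soat2, was the highest in this sum too. Other genes ran against the sum, since BRAF library 1, the lowest of its group in it, was the highest in Npc1l1 and Abca1, and CDX2KO_BRAF library 1 was the higher of its group in Abca1 and Soat2. Of the 6 epithelial markers, 2 fell in the libraries labelled CDX2KO_BRAF against BRAF, Krt20 with a difference of -2.28 (limma, adjusted p = 0.0219) and Vil1 with -0.92 (0.0494), and in SMAD4KO_BRAF all 6 differences from BRAF were negative with none called. In the libraries labelled CDX2KO_BRAF 2 of 5 Paneth cell markers fell against BRAF, and 2 of 5 were lower than in SMAD4KO_BRAF with a median of -2.04, with sums of 6747 and 5173 FPKM there, 15382 to 23942 FPKM in SMAD4KO_BRAF and 8764 to 17695 FPKM in BRAF. Stem cell markers summed to 444 and 225 FPKM in the libraries labelled CDX2KO_BRAF, to 274 to 530 FPKM in SMAD4KO_BRAF and to 185 to 459 FPKM in BRAF, and none of 5 passed against BRAF in either group, while 2 of 5 were lower in the libraries labelled CDX2KO_BRAF than in SMAD4KO_BRAF, with a median of -0.89. T cell markers ranged from 7.62 to 42.2 FPKM in the libraries labelled CDX2KO_BRAF, from 34.8 to 312 FPKM in SMAD4KO_BRAF and from 22.6 to 607 FPKM in BRAF, and mesenchymal markers from 2.30 to 16.0, from 8.34 to 44.2 and from 6.64 to 109 FPKM in the same groups. The part of any of these cell types in the sterol gene values was not tested.

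Another 54 genes of sterol handling were listed by role, and 53 were tested, Abcg1 falling under the minimum. In the libraries labelled CDX2KO_BRAF 3 rose and 8 fell against BRAF, with a median difference of -0.29 beside 0.02 over all tested genes. Of all tested genes 6.89% rose and 7.21% fell, so the count that rose is near the background. In SMAD4KO_BRAF none passed against BRAF in limma, 42 of 53 differences were negative, and the median was -0.24. Unadjusted, 13 of the 53 had p under 0.05, as did 15.1% of all tested genes. Among the smallest adjusted p-values there were those of the sterol sensor gene Insig1 (-0.57, limma adjusted p = 0.212), the recycling motor gene Myo5b (-0.62, 0.215) and the endocytic adaptor gene Numb (-0.45, 0.238). With library weights 8 of the 53 passed, all lower, among them Insig1 (adjusted p = 0.0438) and Numb (0.0433), while 414 of all 12084 genes were called higher and 655 lower. With no alternative setting, none of 8 LXR receptors and targets passed in any comparison, and none of 7 genes of the SREBP2 axis. Their calls under the alternatives are not given here. The LXR group had a median of -0.20 in the libraries labelled CDX2KO_BRAF and -0.23 in SMAD4KO_BRAF, both against BRAF, and the SREBP2 group had 0.20 and -0.16. Between the libraries labelled CDX2KO_BRAF and SMAD4KO_BRAF the medians were -0.14 for the LXR group and 0.44 for the SREBP2 group. There 6 of 7 SREBP2 genes were positive, with a smallest limma adjusted p of 0.0648. Unadjusted, 4 of the 7 had p under 0.05, all higher, beside 28.9% of all tested genes in either direction.

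Transcription factors known to act on these genes held the largest difference of the list. Isx, a homeobox repressor of Scarb1 in the mouse intestine, stood at 2.03 and 2.37 FPKM in the libraries labelled CDX2KO_BRAF, at 68.9, 61.1 and 55.5 FPKM in SMAD4KO_BRAF libraries, and at 73.3, 63.6 and 79.4 FPKM in BRAF libraries. Both libraries labelled CDX2KO_BRAF lay far below all others, and Isx fell there by 4.51 ± 0.14 against BRAF (limma, adjusted p = 8.69e-06), in all 20 alternatives. Scarb1, the scavenger receptor that takes up sterol from lipoproteins, stood at 28.9 and 28.4 FPKM in the libraries labelled CDX2KO_BRAF, at 4.67, 8.02 and 5.89 FPKM in SMAD4KO_BRAF libraries, and at 15.7, 5.09 and 4.45 FPKM in BRAF libraries. It was highest in the libraries labelled CDX2KO_BRAF, with BRAF library 0 next, and rose by 1.85 ± 0.47 against BRAF (limma, adjusted p = 0.0402). With 1 library left out it held without BRAF library 0 and was lost without any other, with adjusted p up to 0.178 without CDX2KO_BRAF library 0. The nuclear receptor gene Hnf4a stood at 161 and 145 FPKM in the libraries labelled CDX2KO_BRAF, at 219, 248 and 286 FPKM in SMAD4KO_BRAF libraries, and at 286, 289 and 289 FPKM in BRAF libraries. It fell by 0.91 ± 0.15 against BRAF (limma, adjusted p = 0.00915), lost without CDX2KO_BRAF library 0 (0.0518) or library 1 (0.0923). The fatty acid receptor gene Ppara fell by 1.21 ± 0.26 (limma, adjusted p = 0.0251), lost without library 1 (0.0637) or library 2 (0.0739) of BRAF, and without library 0 (0.162) or library 1 (0.0804) of those labelled CDX2KO_BRAF. Nr5a2 and Ppard did not pass.

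Among genes that carry NPC1L1 between the surface and the cell interior, 1 of 8 rose and 1 fell in the libraries labelled CDX2KO_BRAF against BRAF, counts near the 6.89% and 7.21% of all tested genes and so no result about this set. Flot2, a flotillin of the membrane domains in which NPC1L1 is taken in, was at 14.6 and 18.9 FPKM in the libraries labelled CDX2KO_BRAF, against 5.87, 5.11 and 6.24 FPKM in BRAF libraries. It rose by 1.39 ± 0.20 (limma, adjusted p = 0.00605), lost without CDX2KO_BRAF library 1 (0.0629). Numb, the clathrin adaptor of NPC1L1, was at 21.9 and 20.5 FPKM in the libraries labelled CDX2KO_BRAF, against 41.1, 36.0 and 37.9 FPKM in BRAF libraries. It fell by 0.82 ± 0.14 (limma, adjusted p = 0.0115), lost without CDX2KO_BRAF library 0 (0.0626) or library 1 (0.0958). Neither gene overlapped between these groups. Of the 8 genes 2 lay above every BRAF library and 3 below, as did 25.7% and 22.7% of all tested genes. The recycling GTPase gene Rab11a rose against SMAD4KO_BRAF (1.15 ± 0.23, limma adjusted p = 0.0218) and did not pass against BRAF (0.56 ± 0.23, adjusted p = 0.164). The first of these was lost without CDX2KO_BRAF library 0 (0.112) or library 1 (0.132) and without SMAD4KO_BRAF library 1 (0.0531) or library 2 (0.0664).

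Of the genes that split or move stored sterol, Lipe, the hormone-sensitive lipase that also cleaves cholesteryl esters, stood at 1.77 and 3.02 FPKM in the libraries labelled CDX2KO_BRAF, against 15.0, 18.0 and 11.04 FPKM in BRAF libraries. The groups lay far apart, and Lipe fell by 2.21 ± 0.34 (limma, adjusted p = 0.00757), lost without CDX2KO_BRAF library 0 (0.0628). The remaining calls against BRAF lay close to the threshold. Cd36, a fatty acid and lipoprotein receptor, fell by 1.79 (limma, adjusted p = 0.0421), the sterol carrier gene Scp2 by 0.62 (0.0400) and the sterol transfer gene Stard4 by 0.68 (0.0469), while the oxysterol-binding gene Osbpl2 rose by 0.64 (0.0457). With 1 library left out these 4 held in 1 or 2 of 8 fits each, and each was lost without either library labelled CDX2KO_BRAF. Without CDX2KO_BRAF library 0 the 53 genes held 1 call higher and 1 lower against BRAF, without CDX2KO_BRAF library 1 none higher and 2 lower, without BRAF library 1 there were 2 higher and 4 lower, and without BRAF library 2 there were 1 higher and 5 lower. Against SMAD4KO_BRAF, 4 of the 53 genes were higher in the libraries labelled CDX2KO_BRAF (Scarb1, Flot2, Rab11a and Osbpl2) and 5 lower (Isx, Hnf4a, Ppara, Lipe and Cd36), where 6.6% of all tested genes were higher and 5.01% lower. Of these 9, without either library labelled CDX2KO_BRAF Isx alone passed.

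**Figure D4:**
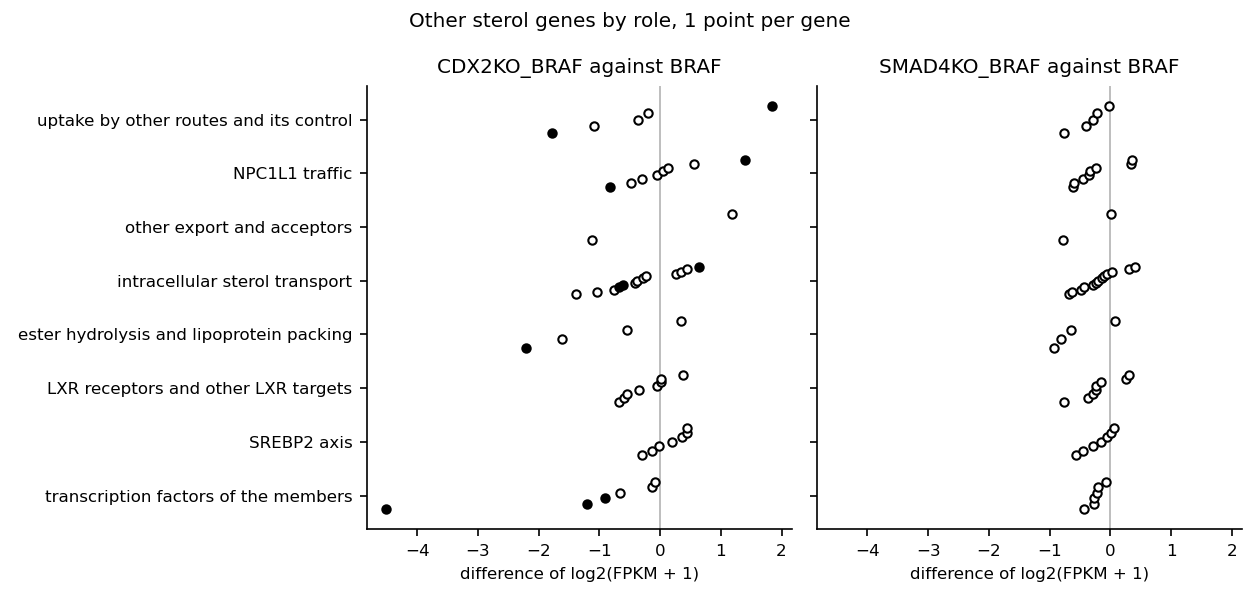
Difference of mean log2(FPKM + 1) for the 53 tested sterol genes outside the 6, in rows by role, with 1 point per gene and filled points where limma's adjusted p is under 0.05. The lowest point in the libraries labelled CDX2KO_BRAF is Isx at -4.51 and the highest is Scarb1 at 1.85, and no point is filled in SMAD4KO_BRAF.

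The genes whose levels ran most like each of the 6 were sought among 8378 tested genes with a mean of at least 5 FPKM, by Pearson r of log2(FPKM + 1) over 8 libraries, which share groups, so that r is a description. Ggt1, a gamma-glutamyl transferase of the brush border, was the closest to both Abcg5 and Abcg8, with an r of 0.997 for each. It stood at 16.2 and 6.60 FPKM in the libraries labelled CDX2KO_BRAF, at 128, 52.1 and 57.5 FPKM in SMAD4KO_BRAF libraries, and at 222, 150 and 160 FPKM in BRAF libraries. Like the exporter genes, Ggt1 was highest in library 0 of SMAD4KO_BRAF and lower in library 1 of those labelled CDX2KO_BRAF. Next for Abcg5 came Mpp1 (0.990) and the chemokine gene Ccl25 (0.988), and for Abcg8 the sulfotransferase gene Sult2b1, whose enzyme sulfates cholesterol (0.990), and the dipeptidase gene Cndp2 (0.990). Npc1l1 was most like Chmp4c (0.968), Zfp36 (0.968) and Tssc1 (0.963). Soat2 was most like Mkrn1 (0.988), Fez2 (0.984) and Ankrd37 (0.983), and Abca1 was close to Recql5 (0.970) and Cd36 (0.940). Soat1 was most like Dlg1 (0.989), Ankfy1 (0.986) and Ncoa3 (0.983). Among the 6 genes themselves, Soat1 had a negative r with each of the other 5, from -0.825 with Abca1 to -0.233 with Npc1l1.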

How the data were processed

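Messenger RNA of jejunal crypts was sequenced in 8 libraries, with TruSeq kits and 50 bp reads from 1 end, per the labels' protocols. The values are FPKM in 1 table deposited by the authors. TopHat2 2.1.0, Cuffnorm 2.2.1, Cuffdiff 2.2.1 and the mouse build mm9 are named in the submitters' processing notes, without saying which program made the table. FPKM scales a gene by its length and library, so a gene's value also moves with the share taken by abundant genes. Since columns are numbered from 0 and sample titles from 1, a column could be matched to a group but not to a sample. Another 3 columns match no sample and were not used.

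From these values log2(FPKM + 1) was computed for genes with FPKM of at least 1 in at least 2 libraries. All 3 groups were fitted together with limma 3.58.1 (mean-variance trend) under R 4.3.3. P-values are two-sided, with Benjamini-Hochberg adjustment per comparison over 12084 genes. Ratios of FPKM + 1 were compared with exact permutation tests (scipy 1.17.1), adjusted over 9 tests, 3 of them of a ratio added after the values were seen. Fits were tested on simulated data. Named are the 6 genes, Smad4 and Cdx2, of the other sterol genes each called gene and the 4 smallest adjusted p-values per comparison, and the 3 most alike genes of each of the 6. A few genes that this rule names are not reported here. The 6 genes, the lists and the alternatives were chosen with earlier results of these data known. The alternatives left out each library, used female libraries or the 2 groups alone, added sex as a term or a replicate block, used library weights, robust empirical Bayes or no trend, rescaled by quantiles or median ratios, set a pseudocount of 0.1, or set the minimum FPKM to 5 or dropped it. Under no alternative was the median log2 difference of all genes further than 0.0694 from 0.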

Additional observations from a re-analysis of the deposited data

How the results depend on the processing

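Every difference of the 6 genes kept its sign under the alternatives run, except the near-zero ones given here. Calls were less steady than signs, both in counts over all genes and among the 6 genes, where calls were lost or gained under several alternatives. For SMAD4KO_BRAF against BRAF, 3 genes were lower with no filter, 414 were higher and 655 lower with library weights, 11 and 67 with sex as a term, and 8 higher in female libraries alone. Library weights brought Npc1l1 (-0.94, adjusted p = 0.0315), Abcg5 (-1.06, 0.0489) and Abcg8 (-1.02, 0.0432) past the threshold, and sex as a term did so for Npc1l1 (-1.12, 0.0365). For the libraries labelled CDX2KO_BRAF against BRAF, library weights called 1321 genes higher, and Abca1 passed with a pseudocount of 0.1 (-2.64, adjusted p = 0.0238), only the 2 groups (-1.38, 0.0495), robust empirical Bayes (-1.38, 0.0469) and library weights (-1.13, 0.0414). Against SMAD4KO_BRAF, library weights called 1400 genes higher and 1047 lower, Abca1 passed with a pseudocount of 0.1 (-2.31, 0.0410), and Npc1l1 turned to 0.023 with sex as a term and to 0.020 in female libraries. The log2 ratio of Abcg5 to Abcg8 for the libraries labelled CDX2KO_BRAF against BRAF turned to 0.026 with a pseudocount of 0.1. Abca1 was not tested at a minimum FPKM of 5. The cause of these shifts was not tested.

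With 1 library left out, 2 to 7 genes were higher and 2 to 18 lower in SMAD4KO_BRAF against BRAF, 167 to 897 and 242 to 936 in the libraries labelled CDX2KO_BRAF against BRAF, and 124 to 813 and 110 to 610 against SMAD4KO_BRAF. The lowest counts of the libraries labelled CDX2KO_BRAF came without CDX2KO_BRAF library 1, where 1 library is taken to vary as the other groups do. In SMAD4KO_BRAF against BRAF, Npc1l1 ran from -1.25 to -1.03 and Abca1 from -0.50 to 0.051. In the libraries labelled CDX2KO_BRAF against BRAF, Npc1l1 ran from -1.28 to -1.07, Abca1 from -1.58 to -1.12, Soat2 from -1.52 to -1.29 and Soat1 from 0.93 to 1.11, and the log2 ratio of Abcg5 to Abcg8 from -0.18 to 0.034. Against SMAD4KO_BRAF, Npc1l1 ran from -0.12 to 0.020, Abcg5 from -2.65 to -1.65, Abcg8 from -2.39 to -1.59, Soat2 from -1.09 to -0.56 and Soat1 from 1.15 to 1.32.

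Same-numbered BRAF and SMAD4KO_BRAF columns had correlations of deviations of 0.241, -0.0474 and 0.00346, so not every pair passed 0.1 and the numbers were not taken as pairs, although library 0 is male in both groups. With a replicate block by column number, 481 genes were called higher in the libraries labelled CDX2KO_BRAF against BRAF, and 413 higher and 392 lower against SMAD4KO_BRAF. Abca1 passed against BRAF with the block (-1.61, adjusted p = 0.0392), and no other call of the 6 genes changed. With 2 or 3 libraries a group and no read counts, an adjusted p above the threshold leaves differences of the size of its interval possible.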
